A study of Canis lupus familiaris with 6 samples.

Results

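Ganglion cells of the dog retina were described in single-cell RNA libraries from eyes that had received human retinal organoid fragments under the retina 3 days earlier. A barcode was selected on its own measured expression: at least 300 genes, and at least 3 UMIs (unique molecular identifiers, each standing for 1 captured transcript) of SLC17A6, POU4F1, POU4F2, RBPMS and NEFL together. These had to come from at least 2 of the genes, 1 of them SLC17A6, POU4F1 or POU4F2. Barcodes with any GAD1 or GAD2 UMI, with 0.3% or more of UMIs from the glial genes RLBP1, GLUL and SLC1A3, or with 0.1% or more from the bipolar genes TRPM1, PCP2, GNG13 and CABP5 were not taken. This left 88 ganglion cells among 82153 barcodes with 300 or more genes. Both groups came from dogs with normal retinas (genotype normal or wild-type) under immunosuppression. The tissue over the graft was a 5 mm punch of neural retina lying above the transplant, and the control was a 5 mm punch from an area of retina without graft. The organoids were grown from WA09, a human embryonic stem cell line with a CRX-tdTomato reporter. Each of 3 experiments, LG5, RC726 and RC724, gave 1 library per group. The labels do not say whether the experiments came from different dogs, so the spread between experiments may not be a spread between animals.

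Retinal ganglion cells are the output neurons of the retina. They collect signals from bipolar and amacrine cells, release glutamate, and send the axons that form the optic nerve, which is why they carry large amounts of neurofilament and axonal protein messages. POU4F1 and POU4F2 are transcription factors of ganglion cell development, SLC17A6 is the transporter that fills synaptic vesicles with glutamate, and RBPMS is an RNA-binding protein used across mammals to label the class. Ganglion cells exist as many subtypes, which differ in transcription factors, neuropeptides and, in intrinsically light-sensitive cells, the photopigment melanopsin.

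The cells came almost wholly from 1 experiment: LG5 held 63 over the graft and 18 in control, RC726 held 1 over the graft and 0 in control, and RC724 held 3 over the graft and 3 in control. Comparisons of expression therefore rest on the LG5 pair. With 1 library per group they have no replicate check, and their intervals are exact 95% intervals that cover counting error only. The ganglion cells were large libraries of their own, with medians of 11359 UMIs over the graft and 9774.5 in control in LG5, against 1259 and 1326 for all LG5 barcodes over the graft and in control. Mitochondrial genes made up a median of 5.97% of UMIs in ganglion cells over the graft and 11.2% in control cells of LG5. In RC724 the medians were 21.6% over the graft and 8.35% in control. There 2 of the 3 cells over the graft and 0 of the 3 in control had more than 20%. The smallest RC724 cell over the graft had 1463 UMIs, so comparisons that use RC724 rest on few and partly poor cells. Doublets were not removed. The automatic threshold of scrublet marked no more than 0.121% of any library, and the 6% of barcodes with the highest scores held 54 of the 63 LG5 ganglion cells over the graft and 14 of the 18 control cells. No ganglion cell barcode was a ganglion cell in 2 libraries, and between any 2 libraries at most 102 barcode sequences were shared.

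The sum of the 5 rule genes ranged from 4 to 587 UMIs per cell, with a median of 51, and 6 of the 88 cells had fewer than 10. No cell sat at exactly 3 UMIs and 4 cells had 4. Just outside the limit, 1 LG5 barcode over the graft had 2 UMIs and met every other condition. A further 21 LG5 barcodes over the graft and 3 in control met every condition except the one asking for SLC17A6, POU4F1 or POU4F2. They are given in the closing section and are not counted here. The bipolar limit alone kept out 1 LG5 barcode over the graft, and the glial limit alone kept out 2 in control.

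The label was checked on genes the rule did not ask for. SNCG, the gamma-synuclein gene of long-axon neurons, stood at 2831 CPM (UMIs per 1000000, summed over the cells of a library) over the graft and 1668 in control in LG5. It had 1527 CPM in the RC726 cell over the graft, and 370 CPM over the graft, against 991 in control in RC724. In RC724 SNCG was seen in 1 of 3 cells over the graft and 3 of 3 in control. Amacrine cells, chosen by GAD1, GAD2, SLC32A1 and SLC6A9, had 3.35 CPM or less in every library. THY1, a surface glycoprotein of ganglion cells, had 649 CPM over the graft and 784 in control in LG5. It had 382 CPM in the RC726 cell, and in RC724 556 CPM over the graft, against 617 in control. STMN2, which regulates axonal microtubules, lay between 2963 and 4486 CPM and UCHL1, a neuronal deubiquitinase, between 2374 and 4246 CPM in the 5 libraries with ganglion cells. SNCG was thus close to absent from the neighbouring inhibitory neurons, while THY1, STMN2 and UCHL1 were lower there but present. Because the cells were picked by their own genes, these differences between classes are a description without a test.

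**Figure D1:**
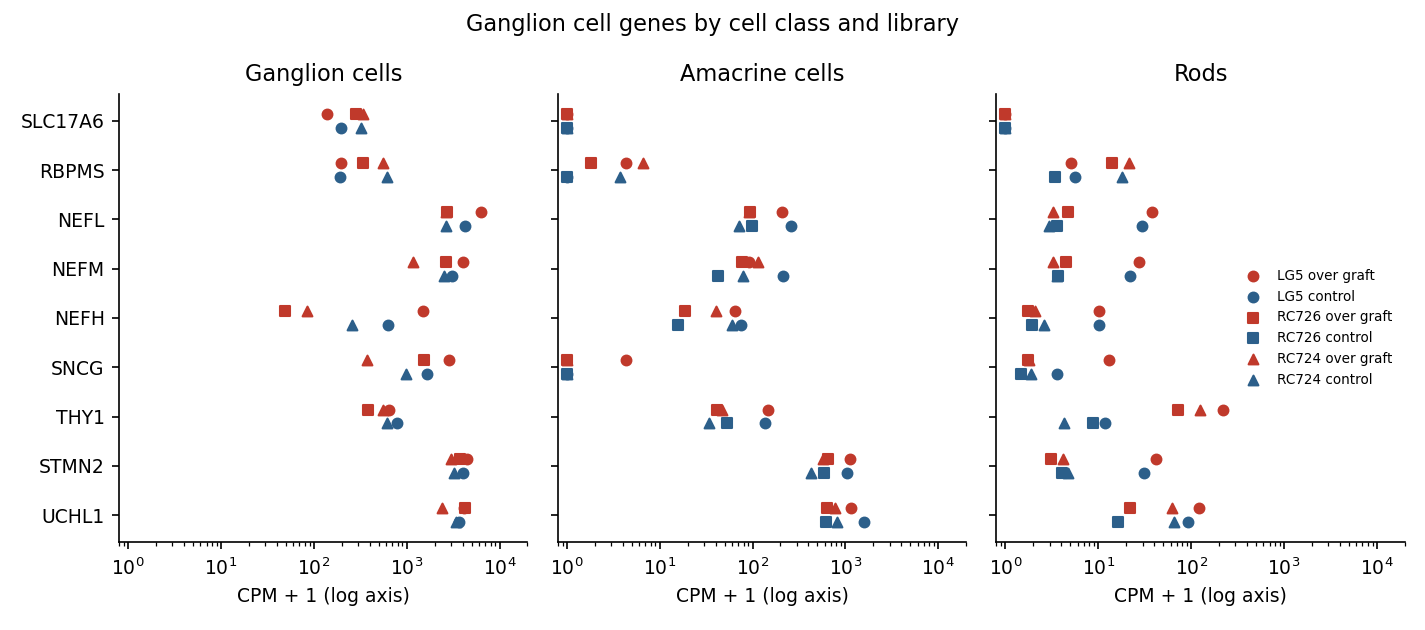
Summed CPM + 1 on a log axis of 9 ganglion cell genes in ganglion cells, amacrine cells and rods, 1 point per library, red over the graft and blue in control. SLC17A6, RBPMS and NEFL were used by the rule; SNCG lies between 370 and 2831 CPM in ganglion cells and at 3.35 CPM or less in amacrine cells, and THY1 of rods is higher over the graft in each experiment.

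RNA of other retinal classes was measured in the ganglion cells by marker lists. The 12 rod markers summed to 327 CPM over the graft, against 604 CPM in control in LG5, against 10144 and 26539 CPM in LG5 rods (over the graft, control). The 12 amacrine markers summed to 360 and 614 CPM in ganglion cells of LG5 (over the graft, control), against 4075 and 3841 CPM in amacrine cells. The 12 bipolar markers, some of which the rule limited, summed to 321 and 244 CPM in LG5 (over the graft, control). In RC724 the ganglion cells over the graft held more of both, with 859 CPM of amacrine markers over the graft, against 287 CPM in control, and 1162 CPM of bipolar markers over the graft, against 246 CPM in control. As shares of UMIs, the amacrine markers made up 0.0859% of RC724 ganglion cells over the graft and 0.0287% in control, and 0.260% of RC724 amacrine cells over the graft and 0.273% in control. Those RC724 sums come from 3 cells a punch, and their part in the RC724 differences was not tested. The 10 Müller glia markers, some of which the rule limited, summed to 488 and 265 CPM (over the graft, control). Markers of astrocytes, which lie beside ganglion cell axons, summed to 27.1 CPM over the graft, against 21.2 CPM in control, and GFAP had 1 UMI over the graft and 0 in control. From the rod genes, free RNA was estimated to supply 5.86% of ganglion cell UMIs over the graft and 5.44% in control in LG5.

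The 88 cells were not uniform. NEFL, the light neurofilament chain, was found in all 88 cells, NEFM in 87, STMN2 and UCHL1 in 86 each, THY1 in 84, SLC17A6 in 83 and SNCG in 81. RBPMS was found in 73 cells. POU4F2 was seen in 20 cells and POU4F1 in 2, so the selection rested on SLC17A6 far more than on the POU factors. Transcription factors of subtypes split the cells: SATB1 was seen in 60 of 88, EBF1 in 58, EBF3 in 56, ISL1 in 47 and MEIS2 in 26. EOMES was seen in 10, TBX20 in 3 and TBR1 in 2. TPBG and ATOH7 had no UMI in any cell, which allows a share of cells with a UMI up to 3.41% by the limit of 3 counts.

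Neuropeptides and photopigment were carried by few cells. CARTPT, a precursor of a peptide found in direction-selective ganglion cells of mice, had 563 UMIs in 17 cells, 204 of them in the single RC726 cell. TAC1, the substance P precursor, was seen in 11 cells and PENK in 2. ADCYAP1, the precursor of the peptide PACAP, was broader, in 54 cells. OPN4, which encodes melanopsin, was seen in 4 LG5 cells over the graft and 1 in control. The control cell held all 24 UMIs of its library together with 3 UMIs of EOMES, a transcription factor that melanopsin cells need in mice. Of the 4 cells over the graft, 3 had EOMES, and the richest held 10 of the 13 OPN4 UMIs. All 5 OPN4 cells also had ADCYAP1.

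The share of ganglion cells among barcodes was higher over the graft in LG5. There 63 of 23898 barcodes over the graft (0.264%, exact binomial interval 0.203% to 0.337%) and 18 of 18049 in control (0.0997%, interval 0.0591% to 0.158%) met the rule, a ratio of 2.64 (1.55 to 4.74). In RC726 the share was 1 of 11578 over the graft and 0 of 10124 in control, where the exact binomial interval reaches 0.0364%. In RC724 it was 3 of 9729 over the graft (0.0308%) and 3 of 8775 in control (0.0342%). With 0.5 cells added to each count, the log2 ratios were 1.37, 1.39 and -0.15 in LG5, RC726 and RC724, with a mean of 0.87 (SD 0.88, n = 3 pairs). The two-sided exact permutation test of sign flips over the 3 pairs gave p = 0.5, and 3 pairs cannot go below 0.25. Barcodes with at least 1000 UMIs were also thinned to 1000 UMIs, and the rule was applied without its minimum of 3 marker UMIs. This left out 9457 LG5 barcodes over the graft and 6227 in control. Of the rest, 8 of 14441 and 4 of 11822 LG5 barcodes (over the graft, control) met the altered rule. The mean log2 ratio was then -0.16. Thinned, RC726 had 0 cells in both punches, so its ratio reflects the number of barcodes alone. The difference in LG5 was thus larger than its counting error, and with 3 pairs the test cannot say whether it holds across experiments. A punch can also hold a different stretch of the ganglion cell layer, and a difference in cells present and a difference in cells recovered cannot be told apart.

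**Figure D2:**
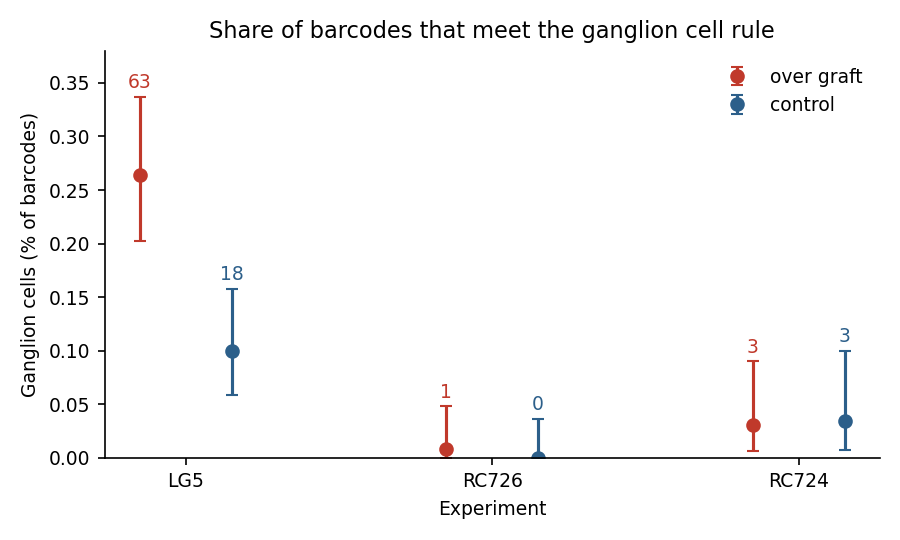
Ganglion cells as a percent of barcodes with 300 or more genes in each experiment, over the graft (red) and in control (blue). Bars are exact 95% binomial intervals and the numbers are ganglion cells: 63 and 18 in LG5, 1 and 0 in RC726, 3 and 3 in RC724.

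Between the LG5 punches, most genes of ganglion cells differed by less than 2-fold. Of 5252 genes with at least 30 UMIs over the pair, 248 (4.72%) were at least 2-fold higher over the graft and 163 (3.1%) at least 2-fold lower, measured as the difference of log2(CPM + 10), a scale that understates the change of low genes. The median log2 difference over these genes was -0.01. Scaling by TMM in place of total UMIs moved log2 differences up by as much as 0.18, and by less for low genes. It turned the counts into 374 higher and 71 lower, so differences are best read against the median of all genes. The RC724 pair, with 3 cells a side, had 179 genes at least 2-fold higher and 484 lower of 2657, with a median of -0.21. Of the LG5 genes past 2-fold with 30 UMIs in RC724, 10 of 37 higher and 43 of 73 lower ones had the same sign there. Of all genes with 30 UMIs in both pairs, 836 of 2337 were higher over the graft in RC724.

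The 10 genes with the largest differences upward in LG5 were CCL23, S100A11, TIMP1, OTOS, CH25H, PCP4, C1QB, RGS1, C1QA and ATF3. Some of them came from very few cells, while PCP4 was seen in 51, TIMP1 in 33, OTOS in 23 and ATF3 in 19 of the 63 cells over the graft. CCL23, a chemokine, had 228 UMIs over the graft and 0 in control, and 1 cell held 86.8% of them. C1QA and C1QB, complement genes made by microglia, had 45 and 48 UMIs over the graft and 0 in control, and were seen in 3 and 4 of the 63 cells. The 11 microglial markers summed to 180 UMIs over the graft and 1 in control, where 10 of the 11 were at 0, and 3 of the 63 cells over the graft held 163 of the 180 as well as 223 of the 228 CCL23 UMIs. Without those 3 cells, 231 genes were at least 2-fold higher and 158 lower. Whether these 3 barcodes hold a ganglion cell together with a microglial cell was not tested.

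TIMP1, an inhibitor of matrix metalloproteases, had 184 CPM over the graft, against 10.6 in control in LG5 ganglion cells, in 33 of 63 and 2 of 18 cells. Rods of the same punches had 3283 CPM over the graft, against 124 in control. SFRP2, a secreted Wnt antagonist, had 530 CPM over the graft, against 95.3 in control in ganglion cells, and 11008 and 3274 CPM in rods (over the graft, control). CRYAB, a small heat shock chaperone, had 130 and 15.9 CPM in ganglion cells and 1503 and 350 CPM in rods (over the graft, control). APOE, a lipid carrier of Müller glia, had 104 and 10.6 CPM in ganglion cells and 484 and 201 CPM in rods (over the graft, control). All 4 genes were more abundant in barcodes of another class than in ganglion cells, in both punches, and the part of free RNA in their difference was not tested. ATF3, a transcription factor induced by axon injury, had 43 UMIs in 19 of 63 cells over the graft and 0 in 18 control cells. With control set at 3 UMIs the difference was 3.19-fold, which is not the lower end of an exact interval. ATF3 in rods stood at 321 CPM over the graft, against 65.2 CPM in control.

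The 3 rule genes with 30 UMIs all stayed under 2-fold in LG5. All 5 rule genes together summed to 6742 CPM over the graft, against 4664 CPM in control (fold 1.45, 1.35 to 1.55). Over the graft and in control in LG5, SLC17A6 had 138 and 196 CPM, a fold of 0.705 with an interval of 0.483 to 1.05. RBPMS had 193 and 191 CPM (fold 1.01, 0.704 to 1.499). The rule genes helped to choose the cells, so their values are a description. Of genes the rule left out, SNCG was 1.70-fold higher over the graft in LG5 (1.51 to 1.92), but in RC724 it had 370 CPM over the graft, against 991 CPM in control. GAP43, a growth cone protein of regrowing axons, had 59.0 CPM over the graft, against 58.2 CPM in control in LG5 (fold 1.01, 0.520 to 2.16). Of the other ganglion cell markers with 30 UMIs, 2 were at least 2-fold higher and 2 lower of 22, beside 4.72% and 3.1% of all genes, with a median log2 difference of 0.16.

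Among the axonal cytoskeleton genes, 1 of 27 was at least 2-fold higher and 0 lower, with a median of -0.03. Of all genes, 4.72% were higher and 3.1% lower. The 1 gene was NEFH, the heavy neurofilament chain of thick axons, at 1494 CPM over the graft, against 630 CPM in control in LG5, a log2 difference of 1.23. It was found in 60 of 63 cells over the graft and 14 of 18 in control, and the per-cell ranges overlapped widely. RC724 went the other way, with 84.2 CPM over the graft, against 260 CPM in control. NEFL had 6391 and 4241 CPM and NEFM, the medium chain, 4047 and 3076 CPM in LG5 (over the graft, control), both under 2-fold. PVALB, a calcium buffer, had 3178 CPM over the graft, against 1255 CPM in control in LG5, and 724 and 826 CPM in RC724 (over the graft, control). The LG5 differences of NEFH, PVALB and NEFL sat mostly in 1 group of cells over the graft, the 17 with PCP4 at 5000 CPM or more, which were set apart after their values were seen. They held 919 of the 1267 NEFH UMIs, 2045 of the 2694 PVALB UMIs and 3642 of the 5418 NEFL UMIs. These were deep cells, each with 18330 UMIs or more, against a median of 11359 over the 63, so shares of UMIs exceed shares of cells. They held 46.0% of the SNCG UMIs, for example. Per depth, the 17 cells had 2287 CPM of NEFH, 5089 CPM of PVALB and 9064 CPM of NEFL. In the other 46 cells over the graft, NEFH had 780 CPM, PVALB 1455 CPM and NEFL 3982 CPM, against 630, 1255 and 4241 CPM in the control cells. SNCG was not confined to that group, with 2748 CPM in the 17 cells and 2906 CPM in the other 46.

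Of 19 ion channel genes with 30 UMIs, 1 was at least 2-fold higher and 4 lower over the graft in LG5, beside 4.72% and 3.1% of all genes. Their median was -0.29, against -0.01 for all genes tested. With TMM scaling the counts became 2 higher and 1 lower. SCN2A, a sodium channel of the axon initial segment, had 219 CPM over the graft, against 482 CPM in control, and SCN3A 99.1 and 233 CPM (over the graft, control). KCND2, an A-type potassium channel, had 28.3 CPM over the graft, against 101 CPM in control. SCN4B, a sodium channel beta subunit, was the exception at 283 CPM over the graft, against 101 CPM in control. In RC724, SCN2A was higher over the graft, at 572 CPM against 381 CPM in control. Of 20 synaptic release genes, 2 were at least 2-fold higher and 1 lower, with a median of -0.27, beside the same 4.72% and 3.1%. The lower one was SYT1, the calcium sensor of vesicle release, with 978 CPM over the graft, against 2075 CPM in control in LG5, and 3991 CPM over the graft, against 2333 CPM in control in RC724. Its LG5 order also turned, to a log2 difference of 0.76, outside the 6% highest doublet scores.

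Of 11 subtype genes with 30 UMIs, 1 was at least 2-fold higher over the graft in LG5, PVALB, and 4 were lower, with a median of -0.55, beside 4.72% and 3.1% of all genes. EBF3, a transcription factor counted with the other ganglion cell markers, had 88.5 CPM over the graft, against 307 CPM in control in LG5, with the same order in RC724, 67.4 CPM over the graft, against 169 CPM in control. CDH13, an adhesion molecule, had 18.9 and 154 CPM in LG5 and 16.8 and 50.6 CPM in RC724 (over the graft, control). MEIS2 had 66.1 CPM over the graft, against 169 CPM in control in LG5, and the opposite order in RC724. The 10 genes with the largest differences downward were CDH13, OPN4, CDO1, RELN, CLMP, PDE6H, SPOCK1, ND3, PCSK1 and NELL2. OPN4 rested on the 1 control cell described above, and without the richest cell of each punch its log2 difference was 0.44 in place of -2.44. PDE6H, a cone gene, was likewise held at 91.7% by 1 control cell. ND3, a mitochondrial gene, had 289 CPM over the graft, against 1038 CPM in control, beside the lower mitochondrial share over the graft.

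PCP4, a calmodulin regulator, was the most abundant gene among those 10 highest. In LG5 it had 7780 CPM over the graft, against 1091 CPM in control, a 7.13-fold difference with an interval of 6.21 to 8.24. The cells behind it were not shifted as a whole: PCP4 was seen in 51 of 63 cells over the graft and 15 of 18 in control, and 12 and 3 cells (over the graft, control) had none. What differed was a group of very high cells, since 17 of 63 over the graft and 1 of 18 in control had 5000 CPM or more. Among the 9 cells over the graft and 4 in control outside the 6% highest doublet scores, the log2 difference was -1.76. In RC724 the order was also opposite, with 168 CPM over the graft, against 620 CPM in control, and no cell of RC726 or RC724 reached 1000 CPM. VAX2, a homeobox factor of the ventral retina that was singled out after its values were seen, was found in 31 of 63 LG5 cells over the graft (49.2%, 36.4% to 62.1%) and 1 of 18 in control (5.56%, 0.141% to 27.3%). Thinned to 1000 UMIs per cell, VAX2 was left in 3.17% of cells over the graft and in 0 of 15 control cells, which is too few to compare. VAX2 was also higher over the graft in other classes: rods over the graft had 34.2, 14.5 and 21.7 CPM in LG5, RC726 and RC724, against 18.8, 1.30 and 0.219 CPM in control rods of the same experiments. The labels used here do not place the 2 punches along the dorsal to ventral axis, and position and graft cannot be told apart. PCP4 reached 1000 CPM in 15 of the 31 VAX2 cells and 10 of the 32 cells without VAX2 over the graft. This split was not matched for depth, and the 17 cells at 5000 CPM or more each had 18330 UMIs or more.

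**Figure D3:**
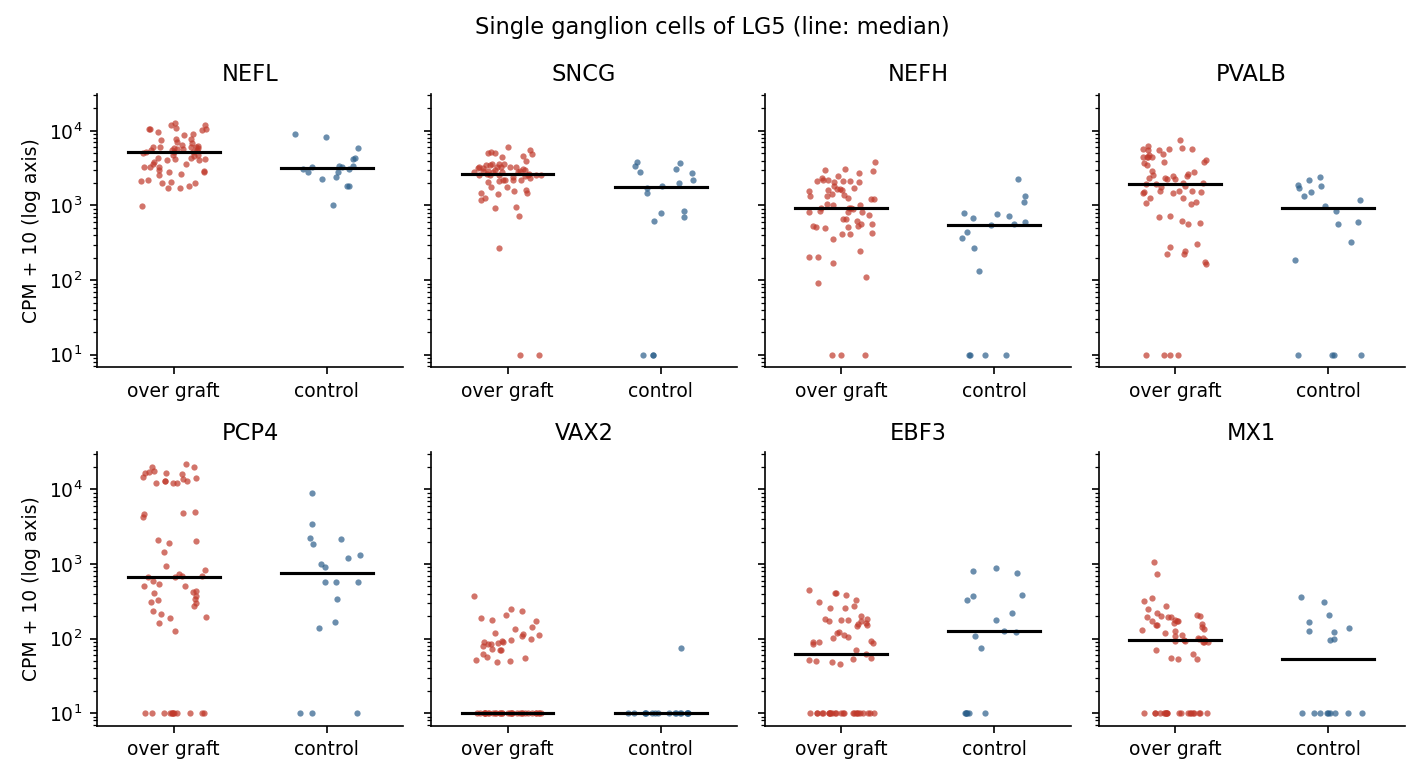
CPM + 10 on a log axis of 8 genes in single LG5 ganglion cells, 63 over the graft (red, left) and 18 in control (blue, right), with the median as a line. Cells of the 2 punches overlap for every gene; PCP4 has a group of cells at or above 5000 CPM over the graft (17 cells, against 1 in control), and VAX2 is seen in 31 and 1 cells (over the graft, control).

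A minority of interferon response genes could be read in ganglion cells. Of 42 such genes in the files, 4 had no UMI in LG5 ganglion cells over the graft and 22 had none in control, where the summed depth was lower. In all, 10 reached 30 UMIs over the pair, and 2 of these were at least 2-fold higher and 0 lower, beside 4.72% and 3.1% of all genes. Their median log2 difference was 0.36. MX1, a GTPase that blocks virus replication, had 107 CPM over the graft, against 148 CPM in control in LG5, 143 CPM in the RC726 cell over the graft, and 33.7 CPM over the graft, against 77.5 CPM in control in RC724. MX1 was thus not higher over the graft in either pair, with a LG5 fold of 0.724 (0.470 to 1.15). IFI6, a mitochondrial protein against cell death, had 514 CPM over the graft, against 418 CPM in control in LG5 (fold 1.23, 0.966 to 1.58). ISG15, a ubiquitin-like modifier, was 1 of the 2 higher genes, with 179 CPM over the graft, against 68.8 CPM in control.

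The same genes were read in rods and amacrine cells of the LG5 punches. In rods, MX1 had 201 CPM over the graft, against 3.89 CPM in control, and ISG15 681 and 20.9 CPM (over the graft, control). In amacrine cells, MX1 had 70.4 CPM over the graft, against 50.5 CPM in control, and ISG15 238 and 21.9 CPM (over the graft, control). Over the 10 genes that reached 30 UMIs in ganglion cells, 2 were at least 2-fold higher over the graft there and 8 in rods. In amacrine cells 7 of the 10 were, but 8 of the 10 reached 30 UMIs there, and 5 of those 8 were at least 2-fold higher. The median log2 differences over the 10 were 0.36, 1.24 and 2.79 in ganglion cells, amacrine cells and rods. Of the 39 interferon genes with 30 UMIs in rods, 23 were at least 2-fold higher and 0 lower. Their median log2 difference in rods was lower than that of the 10. Of all genes with 30 UMIs in the class, 4.72% of ganglion cell genes, 1.89% of amacrine genes and 3.2% of rod genes were at least 2-fold higher. None of the 10 was at least 2-fold lower in any of the 3 classes, beside 3.1% of ganglion cell genes, 1.52% of amacrine genes and 1.77% of rod genes. MX1 of control ganglion cells was spread over 9 of 18 cells (exact interval 26.0% to 74.0%), against 35 of 6532 control rods (0.536%), at median depths of 9774.5 and 1058 UMIs. Over the graft, 43 of 63 ganglion cells (68.3%) and 2006 of 7917 rods (25.3%) had a MX1 UMI, at median depths of 11359 and 1304 UMIs. Thinned to 1000 UMIs per cell, the order of the classes turned: MX1 was left in 3 of 63 ganglion cells over the graft (4.76%, exact interval 0.993% to 13.3%) and 804 of 4949 rods over the graft (16.2%, 15.2% to 17.3%). In control the thinned count was 0 of 15 ganglion cells. No order of the 2 classes is therefore read from the unthinned shares.

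**Figure D4:**
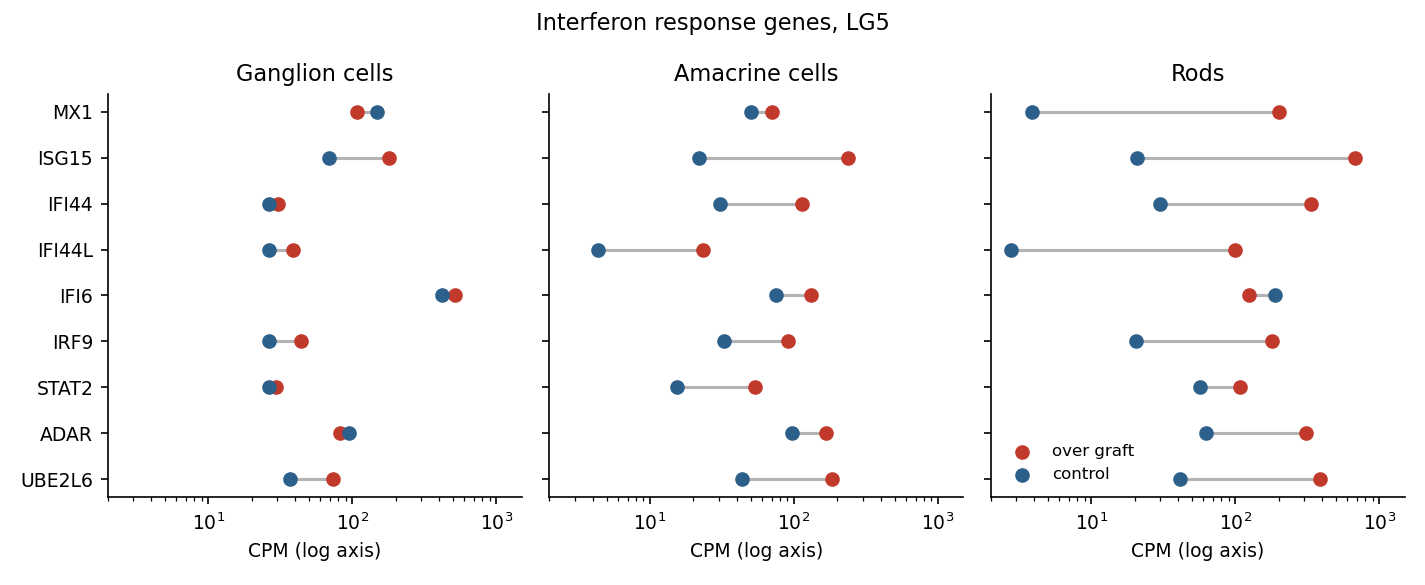
CPM on a log axis, in the LG5 punches, of 9 interferon response genes with at least 30 UMIs in ganglion cells, over the graft (red) and in control (blue), for ganglion cells, amacrine cells and rods. In ganglion cells MX1 stands at 107 and 148 CPM and ISG15 at 179 and 68.8 CPM, and in rods MX1 stands at 201 and 3.89 CPM (over the graft, control).

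The difference in change between ganglion cells and rods was tested directly, with UMIs summed per library and class over the LG5 and RC724 pairs and an interaction of class and group in edgeR. Of 16415 genes, 19 (0.116%) differed at an adjusted p of 0.05, 9 with a higher and 10 with a lower log2 change in ganglion cells. This is the sign of the difference and not the size of the change. FOXP2, for example, differed by -3.44 from rods and fell by 3.44 in ganglion cells themselves. MX1 was among them: its change over the graft was lower in ganglion cells than in rods by 4.22 on the log2 scale (edgeR, -4.22 ± 0.70 SE, adjusted p = 8.14e-06). MX1 was 1 of 37 interferon genes tested and the 1 that passed. ISG15 had a difference of -2.20 ± 0.80 (edgeR, adjusted p = 0.708). The smallest adjusted p was that of THY1, at -4.98 ± 0.75 (edgeR, adjusted p = 6.21e-07). THY1 of rods over the graft had 218, 72.0 and 124 CPM in LG5, RC726 and RC724, against 10.8, 7.68 and 3.28 CPM in control rods. THY1 of ganglion cells differed by less than 1.5-fold between the punches of LG5 and of RC724, at the values given above. The RC724 side of this test has 3 ganglion cells per punch, and the fit left 2 residual degrees of freedom. Without the experiment as a block no gene passed, and both MX1 and THY1 then had an adjusted p of 1, with unadjusted p of 0.0210 and 0.00472. Against amacrine cells, 0 of 8432 genes differed in edgeR, with 335 at an unadjusted p under 0.05, and MX1 had a difference of -1.56 ± 0.58 (adjusted p = 1).

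**Figure D5:**
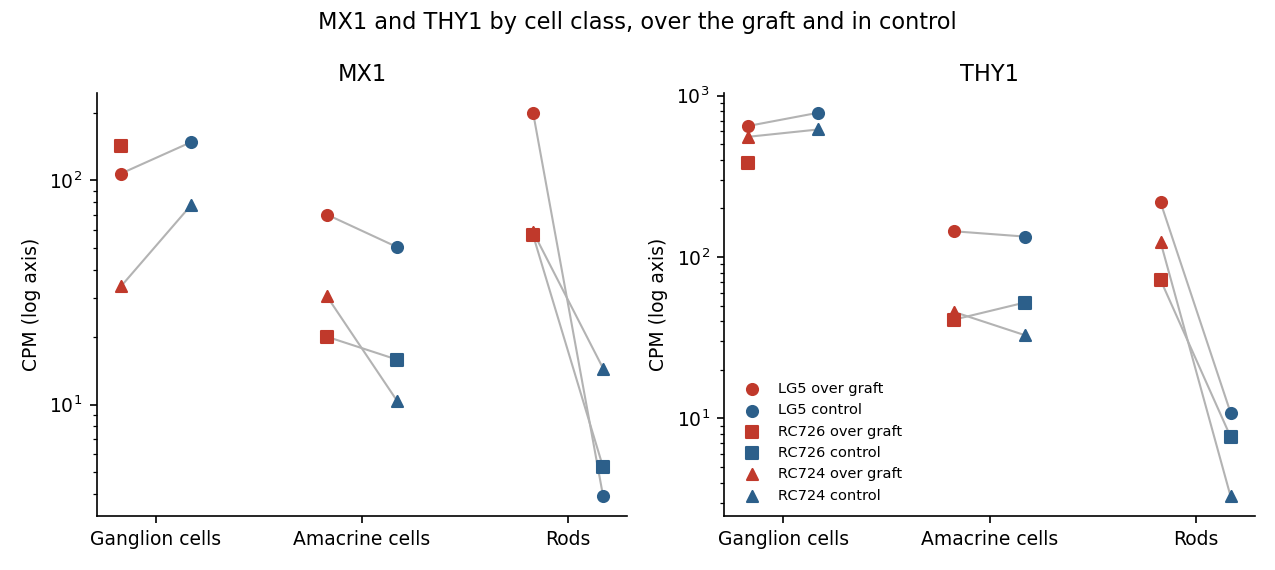
CPM on a log axis of MX1 and THY1 in ganglion cells, amacrine cells and rods of each library, over the graft (red, left of each pair) and in control (blue, right), with the 2 punches of an experiment joined. Rods are higher over the graft in each experiment, while ganglion cells of LG5 and RC724 are not; RC726 has no control ganglion cell.

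Class I antigen presentation genes summed to 1154 CPM over the graft, against 1006 CPM in control in LG5, a fold of 1.15 whose interval of 0.981 to 1.35 includes 1. In RC724 the sums were 892 CPM over the graft, against 1059 CPM in control. Of 10 class I genes with 30 UMIs in LG5, 2 were at least 2-fold higher and 0 lower, with a median of 0.37, beside 4.72% and 3.1% of all genes. DLA-12, a class I heavy chain, had 37 UMIs in 22 of 63 cells over the graft and 0 in 18 control cells. With control set at 3 UMIs the difference was 2.75-fold, again not the lower end of an exact interval. PSMB10, an immunoproteasome subunit, had 41.3 CPM over the graft, against 5.29 CPM in control. B2M, the class I light chain, had 43.6 CPM over the graft, against 26.5 CPM in control (fold 1.65, 0.646 to 5.37). RC724 held too few UMIs of these 3 genes to read an order, at summed depths of 59391 UMIs over the graft and 296607 in control. There DLA-12 had 0 and 4 UMIs, PSMB10 0 and 2 UMIs and B2M 1 and 14 UMIs (over the graft, control).

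Metal and peroxide defence genes were the list with the most members higher in LG5 among the stress lists: 4 of 16 were at least 2-fold higher and 0 lower, with a median of 0.55, beside 4.72% and 3.1% of all genes. The list summed to 8535 CPM over the graft, against 4865 CPM in control in LG5, and the other way round in RC724, with 1886 CPM over the graft, against 2819 CPM in control. MT2A, a metallothionein, had 2208 CPM over the graft, against 646 CPM in control, found in 59 of 63 and 12 of 18 cells, and 1 control cell held 58.2% of the control UMIs. Rods had 11324 CPM of MT2A over the graft and 3287 CPM in control. GPX4, which reduces lipid peroxides, had 1067 CPM over the graft, against 519 CPM in control, and PRDX6, a peroxiredoxin, 254 and 122 CPM (over the graft, control). In RC724 GPX4 had 202 CPM over the graft, against 378 CPM in control.

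Of 23 axon injury genes, 3 were at least 2-fold higher and 0 lower over the graft in LG5, beside 4.72% and 3.1% of all genes, with a median of 0.09. TMM scaling made the 3 into 5. They were ATF3, CRYAB and GAL, a neuropeptide of injured neurons, with 57.8 CPM over the graft, against 15.9 CPM in control in LG5, and 0 and 105 CPM in RC724 (over the graft, control). JUN, the other classic factor of axon injury, had 103 CPM over the graft, against 148 CPM in control in LG5 (fold 0.692, 0.448 to 1.10), and DDIT3, a factor of the integrated stress response, 37.7 and 63.5 CPM (over the graft, control). SOX11 had 6 UMIs over the graft and 2 in control. Of 15 heat shock genes, 1 was at least 2-fold higher and 1 lower, again beside 4.72% and 3.1%. HSP90AA1, a cytosolic chaperone, had 5934 CPM over the graft, against 4696 CPM in control. Of 32 nuclear genes of oxidative phosphorylation, 1 was at least 2-fold higher in LG5, SDHB, and 0 lower, beside the same 4.72% and 3.1%. The list median was 0.48, and the list summed to 21362 CPM over the graft, against 14506 CPM in control. In RC724 the order was opposite, with 5388 CPM over the graft, against 10040 CPM in control. Of 51 ribosomal protein genes none was past 2-fold in LG5, with a median of 0.15.

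Both pairs that hold ganglion cells in both punches, LG5 and RC724, were fitted together in edgeR, paired by a block for the experiment. Of 4974 genes, 2 were called higher (0.0402%) and 1 lower (0.0201%), with 156 at an unadjusted p under 0.05. These 3 genes were named after their values were seen. The summed depths of the punches differ, so CPM is given beside the UMIs. FOXP2, a transcription factor of a ganglion cell subset in mice, fell over the graft by 3.44 on the log2 scale (SE 0.70, edgeR, adjusted p = 0.0139). It had 6 UMIs over the graft and 11 in control in LG5 (7.08 and 58.2 CPM). In RC724 it had 1 over the graft and 129 in control (16.8 and 435 CPM). All 129 came from 1 cell. CARTPT rose by 3.86 (SE 0.89, edgeR, adjusted p = 0.0495). It had 227 UMIs over the graft and 29 in control in LG5, which is 268 and 154 CPM, under 2-fold. In RC724 it had 103 UMIs over the graft and 0 in control (1734 and 0 CPM), again all from 1 cell. LOC102155931, which has no gene name in the files, rose by 3.59 (SE 0.76, edgeR, adjusted p = 0.0139). It had 12 UMIs over the graft and 0 in control in LG5 (14.2 and 0 CPM). In RC724 it had 74 over the graft and 34 in control (1246 and 115 CPM). All 3 calls were lost without the experiment as a block on the same 4 libraries and 4974 genes, where 0 genes passed in edgeR and 13 had an unadjusted p under 0.05. They were also lost in DESeq2, where 0 passed and 32 had an unadjusted p under 0.05.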

How the data were processed

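Single-cell RNA was measured with 10x 3' libraries of dog neural retina, 6 in all, after digestion in 0.25% trypsin for 10 min, per the labels' protocols. The authors deposited unnormalized UMI counts, 1 matrix of genes by barcodes per library, made with Cell Ranger 6.0.2 (both LG5 libraries), 7.1.0 (RC726 over the graft, both RC724 libraries) and 7.0.0 (RC726 control), per the file headers. No source used here states the genome build, the annotation, or how intron and human reads were handled. The members, gene lists and comparison classes were chosen with earlier results of these data known. Of 34981 gene names, 33363 matched a symbol in the RefSeq table.

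Ganglion cells were found by the rule in the text (Python 3.11.15 with scipy 1.17.1 and numpy 2.4.6), and UMIs were summed per library. Amacrine cells and rods needed at least 3 UMIs of their own genes. A test was planned for experiments with at least 10 ganglion cells in both punches. Only LG5 had these, so its pair is given as values, with a pseudocount of 10 CPM, a minimum of 30 UMIs, and exact intervals from the 2 counts. Genes named are the 10 highest and 10 lowest by log2 difference, members of the lists past 2-fold, and a set of ganglion cell, injury and interferon genes given in every case. VAX2, IFI6 and the edgeR calls were named after their values were seen.

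edgeR 4.0.16 in R 4.3.3 (quasi-likelihood, filterByExpr, TMM, Benjamini-Hochberg at 0.05) was fitted to the LG5 and RC724 sums with the experiment as a block, and DESeq2 1.42.0 was tried beside it. Both punches of an experiment come from the same retina by the design, so the pairing is the study's own. The fit of the difference between classes on these pairs was added after the data were seen. The paired edgeR fit was also run on simulated counts with 1 fixed dispersion for all genes. The fit of the difference between classes was not run on simulated counts. Doublet scores came from scrublet in scanpy 1.11.5. All 6 libraries were used, and 0 columns stayed unmapped. A few genes of these lists are not reported here.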

Additional observations from a re-analysis of the deposited data

Results flagged for a closer look

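MX1 differed between cell classes in its change over the graft, by a test of the difference itself: the log2 change was -4.22 in ganglion cells relative to rods (edgeR, SE 0.70, adjusted p = 8.14e-06). Rods were higher over the graft in LG5 and in RC724. MX1 of ganglion cells was lower in both pairs, but over both its change was -0.55 (edgeR, SE 0.58), which is not read as a fall. In RC724, 1 of 3 ganglion cells over the graft had a MX1 UMI. With a term for each library the difference between classes was -4.47 (edgeR, adjusted p = 5.81e-05). Without the experiment as a block it was -4.21 and did not pass (edgeR, SE 1.48, unadjusted p = 0.0210).

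THY1 was flagged by the same test, with a log2 change of -4.98 in ganglion cells relative to rods (edgeR, SE 0.75, adjusted p = 6.21e-07), and -4.99 (edgeR, adjusted p = 2.93e-08) with a term for each library. Without the experiment as a block it was -4.73 and did not pass (edgeR, SE 1.23, unadjusted p = 0.00472). Rods were higher over the graft in 3 of 3 experiments. THY1 of ganglion cells was lower in both pairs, but over both its change was -0.12 (edgeR, SE 0.60), which is not read as a fall. The ganglion cells of RC724 number 3 in each punch, so the test leans on LG5 and on few cells, and a cause was not tested. Groups held 3 libraries at most, so no library was tested as standing apart from its group.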

How the results depend on the processing

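In the LG5 pair, the counts of genes at least 2-fold higher and lower (248 and 163) became 374 and 71 with TMM scaling, 572 and 529 with a minimum of 1 UMI, and 149 and 18 of 316 genes without the 6% highest doublet scores, which left 9 cells over the graft and 4 in control. DESeq2 size factors gave 86 lower genes, and the mean of each cell's CPM gave 505 higher genes. Without replicate LG5, the RC724 pair gave 484 lower genes. The mean log2 ratio of the share turned to -0.16 at 1000 UMIs per barcode. Without the 6% highest doublet scores, the ratios in LG5, RC726 and RC724 were 0.67, 1.39 and 1.44, the last 2 from 1 cell each. With at most 20% mitochondrial UMIs they were 1.60, 1.39 and -1.34.

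A named gene has a value under an alternative only where it reached 30 UMIs there. Of these values, 596 stayed within their counting interval and 50 moved further with the same sign. Of 498 values of genes past 2-fold in LG5, 15 changed sign, and of 174 values of genes under 2-fold, 21 did. Without the 6% highest doublet scores PCP4 was at -1.76 and SYT1 at 0.76, and GAL was at -0.012 where no SLC17A6, POU4F1 or POU4F2 was asked for. Of all LG5 genes past 2-fold with 30 UMIs in RC724, 10 of 37 higher and 43 of 73 lower ones kept their sign there. Without replicate LG5, 12 of 18 named genes past 2-fold and 7 of 10 named genes under 2-fold turned. Those past 2-fold were PCP4 at -1.82, RELN at 1.77, SPOCK1 at 1.45, NELL2 at 2.26, NEFH at -1.52, PVALB at -0.19, MEIS2 at 2.45, GAL at -3.52, GPX4 at -0.87, SCN2A at 0.58, SYT1 at 0.77 and SDHB at -0.24. The cause was not tested.

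With the replicate block, edgeR called 2 genes higher and 1 lower. No replicate block gave 0 and 0 over all 5 libraries and over the LG5 and RC724 libraries alone, at least 5 marker UMIs from 3 genes gave 0 and 0, DESeq2 gave 0 and 0, no filter on low counts gave 6 higher, and no TMM gave 2 lower. The 19 genes of the difference from rods became 10 with a term per library and 0 with no replicate block. The fit without the 6% highest doublet scores was not run, since no RC724 pair was left. No fit that leaves out a pair was made, since 1 pair gives no residual degrees of freedom. Depth limits the low genes most: the LG5 control sum is 188885 UMIs, against 847811 over the graft.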

Other observations

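Barcodes that met every condition except a UMI of SLC17A6, POU4F1 or POU4F2 numbered 21 over the graft and 3 in control in LG5. The 21 cells over the graft had 2175 CPM of SNCG, 2767 CPM of NEFM, 619 CPM of THY1, 3676 CPM of STMN2 and 4814 CPM of UCHL1, near the values of the ganglion cells of that library. LHX1, a horizontal cell factor, had no UMI in them. The single such barcodes of RC726 over the graft, RC724 over the graft and RC724 control had no UMI of SNCG, NEFM, THY1 or STMN2. With these barcodes added, LG5 had 84 cells over the graft and 21 in control.

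Other genes with a lower log2 change in ganglion cells than in rods included SST, a neuropeptide, at -4.97 (edgeR, SE 0.99, adjusted p = 0.00159), NPY, another neuropeptide, at -2.95 (edgeR, SE 0.71, adjusted p = 0.0306), and TAPBP, a class I loading protein, at -3.28 (edgeR, SE 0.79, adjusted p = 0.0288). CNTN5, an axonal adhesion molecule, had a higher log2 change in ganglion cells, at 5.29 (edgeR, SE 0.88, adjusted p = 8.14e-06). These genes were picked from the 19 after their values were seen. All rest on the LG5 and RC724 pairs, with 3 ganglion cells in each RC724 punch. Without the experiment as a block 0 genes passed.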
